A study of Mus musculus with 4 samples.

Results

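The storage and export of iron and the breakdown of haem were followed through 8 genes in single immune cells from mouse pancreatic tumours. The genes were Fth1, Ftl1, Hmox1, Slc40a1, Tfrc, Slc11a1, Cp and Lcn2. They were taken by symbol from the gene list of the deposited matrices, 8 of 31053 listed genes, and each symbol had UMIs (unique molecular identifiers, which count captured RNA molecules).

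The AT38 group consisted of 2 libraries from mice given 30 mg/kg of AT38 per day, and the vehicle group of 2 libraries from mice given the carrier alone, 1% carboxymethyl cellulose in water. AT38 is a compound known here by its code name, and the title of the study names the interruption of nitrosative stress and tumour-specific cytotoxic T cells. Both groups were C57BL/6 mice with B6KPC3 tumours grown in the pancreas, which were 7 days old when the intraperitoneal injections began. The daily amount was given by a double injection on each of 7 days. Each library pooled cells of 4 mice and was enriched for the leukocyte marker CD45 by flow sorting, so the replicate is a pool of mice and 1 transplanted tumour line underlies all libraries. Age and sex of the mice are not part of the labels used here.

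The libraries held 24294215 to 34386076 UMIs, and 14242 of 18001 cell barcodes were kept, with 2909 to 4723 cells and a median of 3005 to 4154 UMIs per cell in each. Clusters made without the 8 genes were grouped by marker genes into 9 named or described classes, and 1 further cluster of 332 cells led by the neutrophil gene Mmp9 and the T cell gene Cd8a stayed unnamed. A cluster of 251 cells called the keratin cluster here carried epithelial keratins (Krt8, Krt18, Krt19) beside the matrix gene Sparc, and is given no cell type name. Pairs of libraries shared 0 to 4 barcodes. Levels are given as CPM, counts per 1e6 UMIs of the class in that library.

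Iron is held in the cell by ferritin, a hollow shell built of heavy chains (Fth1), which oxidise iron, and light chains (Ftl1), which help to lay it down as mineral. Iron enters most cells bound to transferrin through the transferrin receptor (Tfrc) and leaves through ferroportin (Slc40a1), the known exporter of non-haem iron, with the help of the copper oxidase ceruloplasmin (Cp). Macrophages also free iron from the haem of engulfed red blood cells with haem oxygenase 1 (Hmox1). Slc11a1 (NRAMP1) pumps divalent metals out of the phagosome, and lipocalin 2 (Lcn2) of neutrophil granules withholds iron from bacteria by binding their siderophores. C57BL/6 mice carry the susceptibility allele of Slc11a1, whose protein does not function, so its UMIs describe the transcript alone.

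Iron regulatory proteins bind hairpins called iron-responsive elements (IREs) in several of these mRNAs when iron is scarce. A hairpin in the 5′ UTR then blocks translation of the mRNA, whereas hairpins in the 3′ UTR protect it from decay. UMIs count mRNA, so control of translation through a 5′ hairpin is not visible in them. The hairpins are shown here because they divide the 8 genes by where they carry them. Each site spans 29 bases of the mRNA strand in GRCm38 (mm10), with the bulged C and the loop in capitals. The motif searched on the mRNA strand was the bulged C, any 5 bases and the loop CAGTGN, with the 5 bases on each side of the loop able to pair, G with T pairs included.
Fth1 5′ UTR (chr19:9982732-9982760, plus strand): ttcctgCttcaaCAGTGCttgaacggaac
Ftl1 5′ UTR (chr7:45459779-45459807, minus strand): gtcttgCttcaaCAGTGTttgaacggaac
Slc40a1 5′ UTR (chr1:45925465-45925493, minus strand): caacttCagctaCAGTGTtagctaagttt
Tfrc 3′ UTR, site 1 (chr16:32631219-32631247, plus strand): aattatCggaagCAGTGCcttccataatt
Tfrc 3′ UTR, site 2 (chr16:32631598-32631626, plus strand): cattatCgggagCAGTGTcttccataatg
Tfrc 3′ UTR, site 3 (chr16:32631663-32631691, plus strand): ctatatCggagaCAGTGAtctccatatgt
Tfrc 3′ UTR, site 4 (chr16:32631710-32631738, plus strand): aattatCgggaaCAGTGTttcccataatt
The motif was present in the 5′ UTR of 31 of 20597 genes with one (0.151%), and 3 of these were Fth1, Ftl1 and Slc40a1. It was present in the 3′ UTR of 129 of 20995 genes (0.614%), and Tfrc was the 1 gene with 3 or more sites. No match was present in the UTRs of Hmox1, Slc11a1, Cp or Lcn2. The core of the antioxidant response element, TGACNNNGC on either strand, was in 12.4% of the RefSeq promoter windows (4071 of 32851) and in 0 of the 9 windows of the 6 genes matched there (Hmox1 and Slc40a1 were not matched). So few windows cannot tell these 6 genes from the rest, and sequence outside the windows was not searched.

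In the GENCODE M21 annotation of GRCm38 the genes are protein-coding. Fth1 (ENSMUSG00000024661) lies at chr19:9980598-9985098 and Ftl1 (ENSMUSG00000050708) at chr7:45457944-45459884. Hmox1 (ENSMUSG00000005413) lies at chr8:75093621-75100589, Slc40a1 (ENSMUSG00000025993) at chr1:45908068-45926523 and Tfrc (ENSMUSG00000022797) at chr16:32608920-32632794. Slc11a1 (ENSMUSG00000026177) lies at chr1:74375195-74386062, Cp (ENSMUSG00000003617) at chr3:19957054-20009145 and Lcn2 (ENSMUSG00000026822) at chr2:32384633-32388252. Cp overlaps Hps3 on the opposite strand, and Ftl1 overlaps the unproven gene Gm10252 on the opposite strand. The processed pseudogene Ftl1-ps1 is counted under its own name and held 1.29% as many UMIs as Ftl1 over all kept cells, so reads of these near-identical copies may have been split.

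The storage genes were carried by every class, with the highest CPM in neutrophils and mononuclear phagocytes. Fth1 averaged 28693 CPM in neutrophils over the 4 libraries (range 22868 to 35983) and 12134 CPM in mononuclear phagocytes, which join the macrophage-like and monocyte-like cells (10092 to 13791). Dendritic cells followed with 5737 CPM and the keratin cluster with 4199 CPM. The ranges over libraries of these neighbours in the order did not overlap. From B cells (2433 CPM) through mast cells or basophils, T cells and NK cells to cycling T cells (1488 CPM), each class overlapped the next. Ftl1 was at 3254 CPM in neutrophils and 3238 CPM in mononuclear phagocytes, with overlapping ranges, and was lowest in cycling T cells at 358 CPM. No test was made of these orders, since the classes were built from the same cells. By UMIs per cell in place of CPM, Fth1 was highest in the keratin cluster (137 UMIs per cell) and mononuclear phagocytes (123 UMIs per cell), because neutrophils held a median of 2131 UMIs per cell against 7666 in mononuclear phagocytes. Ftl1 per cell was also highest in the keratin cluster (62.1 UMIs) and mononuclear phagocytes (32.5 UMIs). Neutrophils then held 0.256 times the Ftl1 level of mononuclear phagocytes.

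The haem breakdown gene Hmox1 had its highest mean CPM in mononuclear phagocytes. Hmox1 averaged 232 CPM there (138 to 350), 122 CPM in neutrophils and 59.3 CPM in the keratin cluster, and these neighbours overlapped in range. In T cells it was 8.28 CPM. Mononuclear phagocytes held 64.7% of all Hmox1 UMIs. After thinning every cell to 1000 UMIs, 12.7% and 12.7% of mononuclear phagocytes had an Hmox1 UMI in the AT38 libraries, and 16.8% and 15.04% in the vehicle libraries, without 57 AT38 and 59 vehicle cells that were shallower. Unthinned, at a median of 7666 UMIs, the shares were 49.0% and 41.9% with AT38 and 52.7% and 49.1% with vehicle. T cells, in which free RNA would show, had a thinned share of 0.915% and 0.633% in the AT38 libraries and 0.881% and 1.06% in the vehicle libraries, and 2.69% to 4.53% unthinned at a median of 4190.5 UMIs.

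Export genes sat in different classes. Slc40a1 was highest in neutrophils at 41.6 CPM (33.2 to 48.1), which held 66.6% of its UMIs, against 8.59 CPM in mononuclear phagocytes, and the ranges did not overlap. NK cells, cycling T cells and mast cells or basophils held 0 Slc40a1 UMIs, which allows up to 0.963, 0.628 and 4.04 CPM in these classes by counting error alone (3 counts over the class). Cp was highest in the keratin cluster at 195 CPM (156 to 258), followed by mononuclear phagocytes at 27.0 CPM (17.5 to 37.1) and no more than 1.28 CPM on average in any other class. The keratin cluster and mononuclear phagocytes held 73.6% and 23.3% of the Cp UMIs.

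Uptake and iron-withholding genes differed from these. Tfrc was highest in cycling T cells at 133 CPM (124 to 142), above B cells at 58.2 CPM without overlap, and the other classes down to the keratin cluster (30.9 CPM) overlapped their neighbours. Slc11a1 was at 276 CPM in neutrophils (241 to 316) and 126 CPM in mononuclear phagocytes (100.1 to 142), and dendritic cells followed at 8.02 CPM. Lcn2 was at 788 CPM in neutrophils (584 to 950), which held 91.9% of its UMIs, against 34.9 CPM in the keratin cluster, which overlapped mononuclear phagocytes (7.23 to 36.6 CPM). Per cell, the keratin cluster had the most Slc40a1 (0.184 UMIs per cell) and mononuclear phagocytes the most Slc11a1 (1.27 UMIs per cell), so both orders depend on whether a level is taken per UMI or per cell. The Slc40a1 level of the keratin cluster rested on 48 UMIs in 25 cells, with 45.8% of the UMIs in 5 cells.

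**Figure D1:**
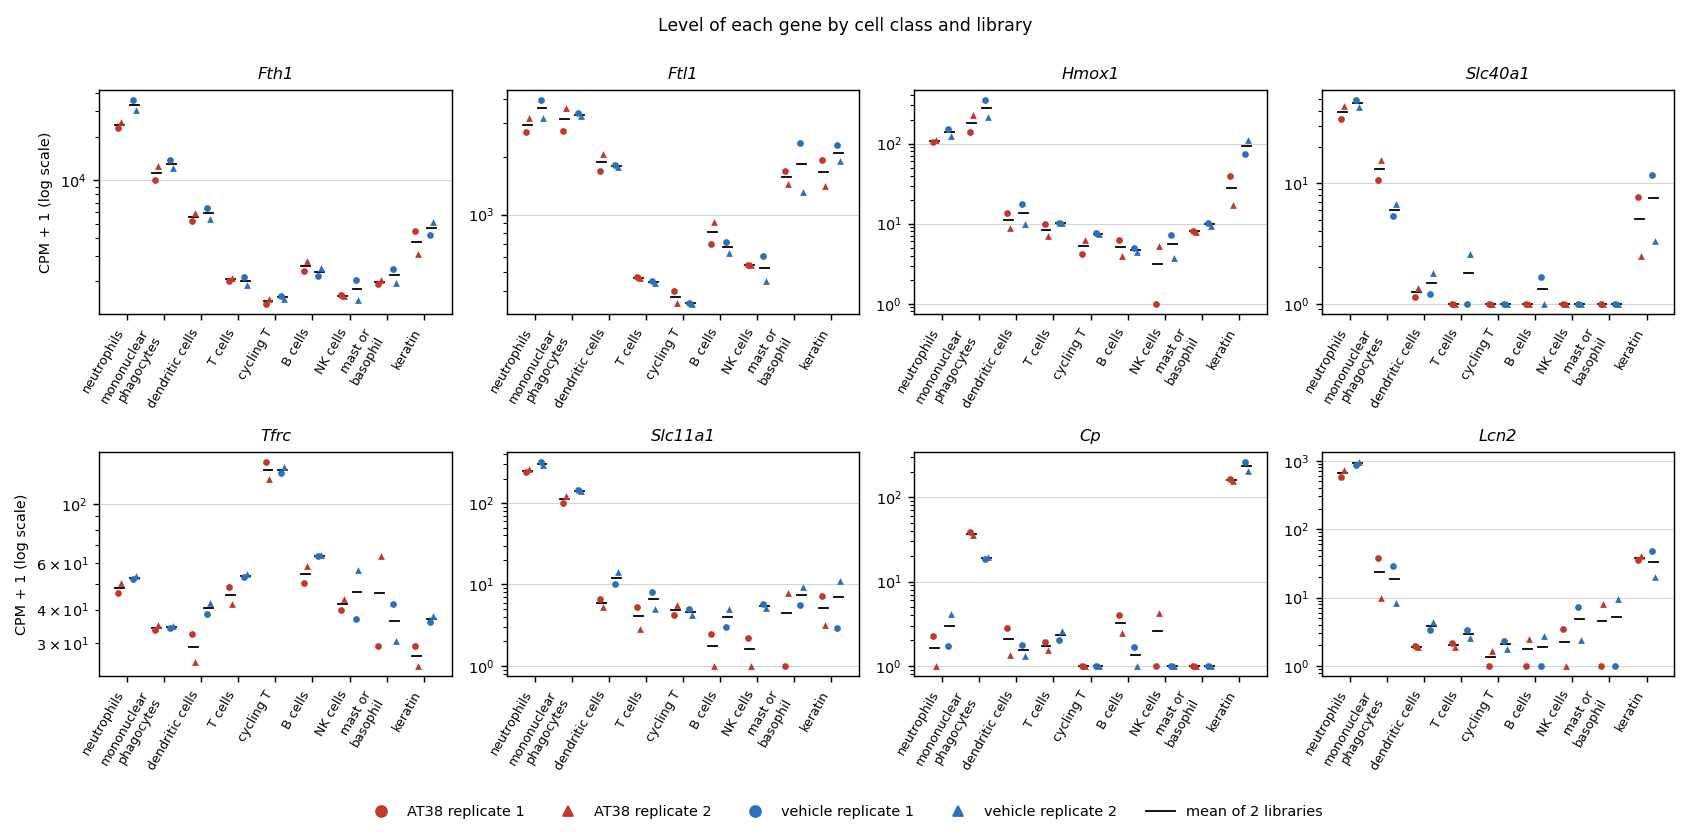
Level of each of the 8 genes (CPM + 1, log scale) in 9 classes, with AT38 libraries (red) left of vehicle libraries (blue) and a bar at the mean of 2 libraries. Fth1, Slc40a1, Slc11a1 and Lcn2 stand highest in neutrophils, Hmox1 in mononuclear phagocytes, Tfrc in cycling T cells and Cp in the keratin cluster.

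Over all kept cells, 3 of the 8 genes were lower with AT38: Fth1, Slc11a1 and Lcn2. In the same comparison 1.39% of the 14504 genes tested were lower. Fth1 was at 6784 and 7090 CPM in the AT38 libraries, against 10247 and 9470 CPM in the vehicle libraries, a log2 fold change of −0.51 ± 0.07 (SE, n = 2 libraries each, edgeR quasi-likelihood test, adjusted p = 0.0187). Slc11a1 was at 48.1 and 47.2 CPM with AT38 and at 75.6 and 78.9 CPM with vehicle (−0.69 ± 0.06, edgeR adjusted p = 0.00337). Lcn2 was at 65.0 and 81.7 CPM with AT38 and at 125 and 136 CPM with vehicle (−0.83 ± 0.12, edgeR adjusted p = 0.0473). Hmox1, at 48.0 and 50.6 CPM with AT38 and 110 and 82.1 CPM with vehicle, did not pass (−0.96, edgeR adjusted p = 0.103). It did pass in DESeq2 (−0.96, adjusted p = 1.3e-08) and in edgeR without its 5 highest cells (−0.86, adjusted p = 0.0147). Without 1 library its log2 fold change ran from −1.16 to −0.73. Each library mixes the classes in its own proportions, and neutrophils made up 27.1% and 27.0% of kept cells in the AT38 libraries and 35.1% and 35.5% in the vehicle libraries, so this comparison cannot tell fewer cells of a class from less RNA per cell. By edgeR, the Fth1 call was lost without AT38 replicate 1 (adjusted p = 0.13) or AT38 replicate 2 (0.12), the Lcn2 call without vehicle replicate 1 (0.12) or vehicle replicate 2 (0.13), and the count of all called genes fell to 167 without vehicle replicate 1, against 262.

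Within neutrophils, the genes of the ferritin heavy chain, haem oxygenase 1, NRAMP1 and lipocalin 2 were all lower with AT38. These were 4 of 7 genes tested, whereas 3.71% of the 8362 genes tested in neutrophils were lower and 5.37% changed in either direction (139 higher and 310 lower). With library totals in place of TMM normalisation the split over all genes became 434 higher and 182 lower, and the median log2 fold change of all genes moved to 0.13, against 0.01. All 7 genes kept a negative log2 fold change under both scalings, but 2 of 7, Fth1 and Lcn2, then passed. The log2 fold changes given here are those after TMM, so they are larger than the ratios of the CPM values printed beside them. The median over the 7 genes was −0.40.

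Fth1 was at 22868 and 25225 CPM in AT38 neutrophils, against 35983 and 30695 CPM in vehicle neutrophils. Both AT38 libraries lay below both vehicle libraries, with a log2 fold change of −0.59 ± 0.08 (SE, n = 2 each, edgeR adjusted p = 0.000113). Ftl1, the light chain, was at 2680 and 3198 CPM with AT38 and at 3948 and 3189 CPM with vehicle. Its groups overlapped and the difference lay just outside the threshold (−0.40 ± 0.11, edgeR adjusted p = 0.0519). Over the alternatives on all neutrophils the adjusted p of Ftl1 ran from 2.7e-05 to 0.32. By edgeR it passed with no filter on low counts (2.7e-05), without its 5 highest cells (0.0095) and with the replicate block (0.010). It also passed with up to 20% mitochondrial UMIs (0.035). With DESeq2 size factors, at least 500 genes per cell or resolution 0.5 it passed narrowly (0.0494, 0.0494 and 0.0496). In DESeq2, with library totals and with doublets kept it did not pass. Without 1 library its log2 fold change ran from −0.56 to −0.24.

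Hmox1 was at 102 and 110 CPM in AT38 neutrophils, against 152 and 123 CPM in vehicle neutrophils, without overlap (−0.49 ± 0.12, edgeR adjusted p = 0.0171). Slc11a1 was at 241 and 258 CPM in AT38 neutrophils and at 316 and 290 CPM in vehicle neutrophils, also without overlap (−0.40 ± 0.09, edgeR adjusted p = 0.0127). Leaving out AT38 replicate 1 or vehicle replicate 1 ended both calls, with edgeR adjusted p of 0.064 and 0.17 for Hmox1 and 0.072 and 0.091 for Slc11a1. Hmox1 did not pass in DESeq2, which called 3 of the 7 genes and 205 genes in all. Nor did Hmox1 pass in edgeR without its 5 highest cells (−0.42, adjusted p = 0.056).

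Lcn2 was at 584 and 741 CPM in AT38 neutrophils, against 877 and 950 CPM in vehicle neutrophils (−0.59 ± 0.10, edgeR adjusted p = 0.00102). Without its 5 highest cells Lcn2 did not pass (−0.64, edgeR adjusted p = 0.138). The exporter Slc40a1 was at 33.2 and 42.7 CPM with AT38 and at 48.1 and 42.4 CPM with vehicle, with overlapping groups (−0.37, edgeR adjusted p = 0.235). Tfrc was at 45.4 and 49.3 CPM with AT38 and at 51.0 and 52.6 CPM with vehicle (−0.25, edgeR adjusted p = 0.386). Cp had 17 UMIs in all neutrophils and was not tested there.

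**Figure D2:**
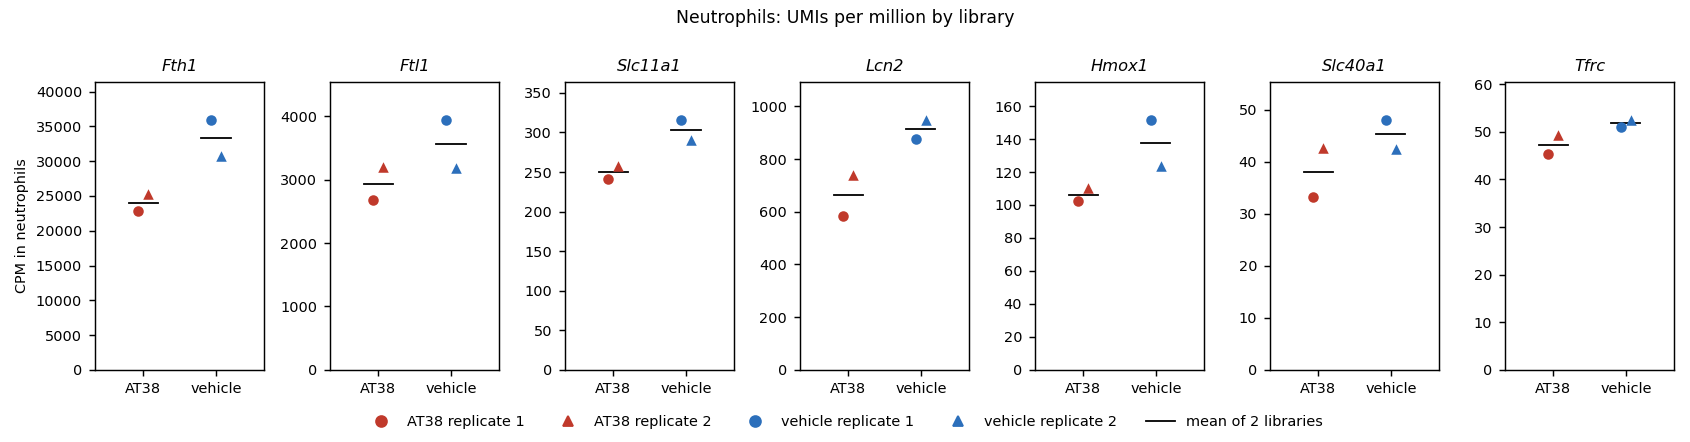
CPM of 7 genes in neutrophils, AT38 libraries left of vehicle libraries, with the mean of 2 libraries as a bar and axes from 0. For Fth1, Slc11a1, Lcn2, Hmox1 and Tfrc both AT38 points lie below both vehicle points, and for Ftl1 and Slc40a1 the groups overlap. Tfrc did not pass the threshold, and the share of all genes with points separated in this way was not computed.

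Other features of the neutrophil class moved with treatment as well. The summed level of 10 neutrophil markers was 62212 and 63216 CPM in the AT38 libraries and 73671 and 77709 CPM in the vehicle libraries, with 6 of 10 markers lower in both AT38 libraries. The 7 markers of immature neutrophils summed to 1273 and 598 CPM with AT38 and 4789 and 3447 CPM with vehicle, 4 of 7 lower. The 7 proliferation markers summed to 30.2 and 40.4 CPM with AT38 and 211 and 62.0 CPM with vehicle, all 7 lower. The 6 acinar markers, from the enzyme-secreting cells of the pancreas, summed to 116 and 143 CPM with AT38 and 45.2 and 47.6 CPM with vehicle. Median UMIs per neutrophil were 2109 and 2313 with AT38 and 2294 and 1948 with vehicle. The part of the acinar and proliferation markers in the iron genes was not tested. With presumed doublets kept, the neutrophil class also took in a cluster led by Cd8a, and none of the 4 genes passed (−0.68 for Fth1, −0.67 for Hmox1, −0.55 for Slc11a1 and −0.70 for Lcn2).

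The neutrophils formed 5 clusters with different levels of these genes. Cluster 1, led by Siglecf and Il1a, held the most neutrophils in the AT38 libraries (43.7% and 40.6%, against 24.7% and 28.6% with vehicle), whereas cluster 0, led by Acod1 and Cxcl3, held the most in the vehicle libraries (35.2% and 37.0% with AT38, against 44.4% and 44.6% with vehicle). Clusters rest on genes that may themselves respond to treatment, so these shares are given as the cells behind the class values only.

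Fth1 was low in cluster 1 at 14357 and 13673 CPM with AT38 and 18746 and 15206 CPM with vehicle. In cluster 0 it was at 33191 and 37268 CPM with AT38 and 47387 and 40541 CPM with vehicle, and in cluster 6, led by Retnlg and Stfa2l1, at 21374 and 27245 CPM with AT38 and 36893 and 32373 CPM with vehicle. Within each of these 3 clusters both AT38 libraries lay below both vehicle libraries, by −0.32, −0.29 and −0.53 on the log2 scale in clusters 0, 1 and 6, and none passed alone (edgeR adjusted p of 0.154, 0.279 and 0.0682), in fits that called 1.93%, 0.223% and 0.122% of all genes. Cluster 15 was the highest, at 53335 and 48974 CPM with AT38 and 49202 and 49181 CPM with vehicle, with overlapping groups (0.03, edgeR adjusted p = 0.998, 0% of all genes called). When each library was given the same cluster weights, the log2 ratio of mean Fth1 CPM was −0.29, against −0.47 as measured, and the groups still did not overlap. For Slc11a1 it was −0.07, against −0.28 as measured, and the groups then overlapped. For Hmox1 it was −0.21, against −0.37 as measured.

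Slc11a1 was carried mostly by cluster 0, with 57.5% of the neutrophil UMIs, at 402 and 445 CPM with AT38 and 462 and 388 CPM with vehicle, with overlapping groups. The exporter Slc40a1 overlapped in cluster 6, at 64.3 and 60.7 CPM with AT38 and 50.5 and 66.7 CPM with vehicle. Hmox1 was lower in both AT38 libraries of cluster 0 but did not pass (−0.91, edgeR adjusted p = 0.109), and in cluster 6 its log2 fold change was 0.15.

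Cluster 15, of 279 cells, stood apart in its mRNA levels of Hmox1 and the ferritin genes. Its leading genes were the heat-shock genes Hspa1b and Hspa1a with Ero1l and Hilpda, which respond to unfolded protein and to low oxygen, and Hmox1 itself. It made up 5.58% and 6.45% of AT38 neutrophils and 8.33% and 5.18% of vehicle neutrophils, yet held 49.8% of the neutrophil Hmox1 UMIs and 26.6% of the Slc40a1 UMIs. Hmox1 was at 1166 and 893 CPM with AT38 and at 850 and 1207 CPM with vehicle in cluster 15, with overlap, and in cluster 0 it was at 39.8 and 64.4 CPM with AT38 and 121 and 78.8 CPM with vehicle. After thinning to 1000 UMIs, 40.4% and 46.0% of cluster 15 cells had an Hmox1 UMI with AT38, and 42.6% and 43.4% with vehicle, with 11 AT38 and 13 vehicle cells left out as shallower. Unthinned, at a median of 2148 UMIs, these shares were 50.9% and 66.7% with AT38 and 67.1% and 56.3% with vehicle. Ftl1 was at 8154 and 8206 CPM with AT38 and 10712 and 8676 CPM with vehicle, Slc40a1 at 106 and 247 CPM with AT38 and 160 and 209 CPM with vehicle. These are levels of a cluster chosen after its values were seen, and no test of it against the other clusters was made.

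Lcn2 rested on few cells. Cluster 21, the 41 immature neutrophils led by Ngp, Camp and Ltf, held 4175 of the 9115 neutrophil Lcn2 UMIs (45.8%). It contributed 4 and 3 cells to the AT38 libraries and 13 and 21 to the vehicle libraries, and 31.6% of the Lcn2 UMIs of AT38 neutrophils against 52.99% of those of vehicle neutrophils. Lcn2 in cluster 21 was at 8907 and 14442 CPM with AT38 and at 9928 and 10309 CPM with vehicle. Without cluster 21 the log2 fold change of Lcn2 in neutrophils was −0.05 (edgeR adjusted p = 0.957), and with the same cluster weights the log2 ratio of means was 0.14, against −0.46 as measured. Fth1 (−0.63, edgeR adjusted p = 0.000216), Slc11a1 (−0.44, 0.0107) and Hmox1 (−0.52, 0.0180) passed without cluster 21. These were 3 of 7 genes tested there, whereas 3.56% of all genes were lower.

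**Figure D3:**
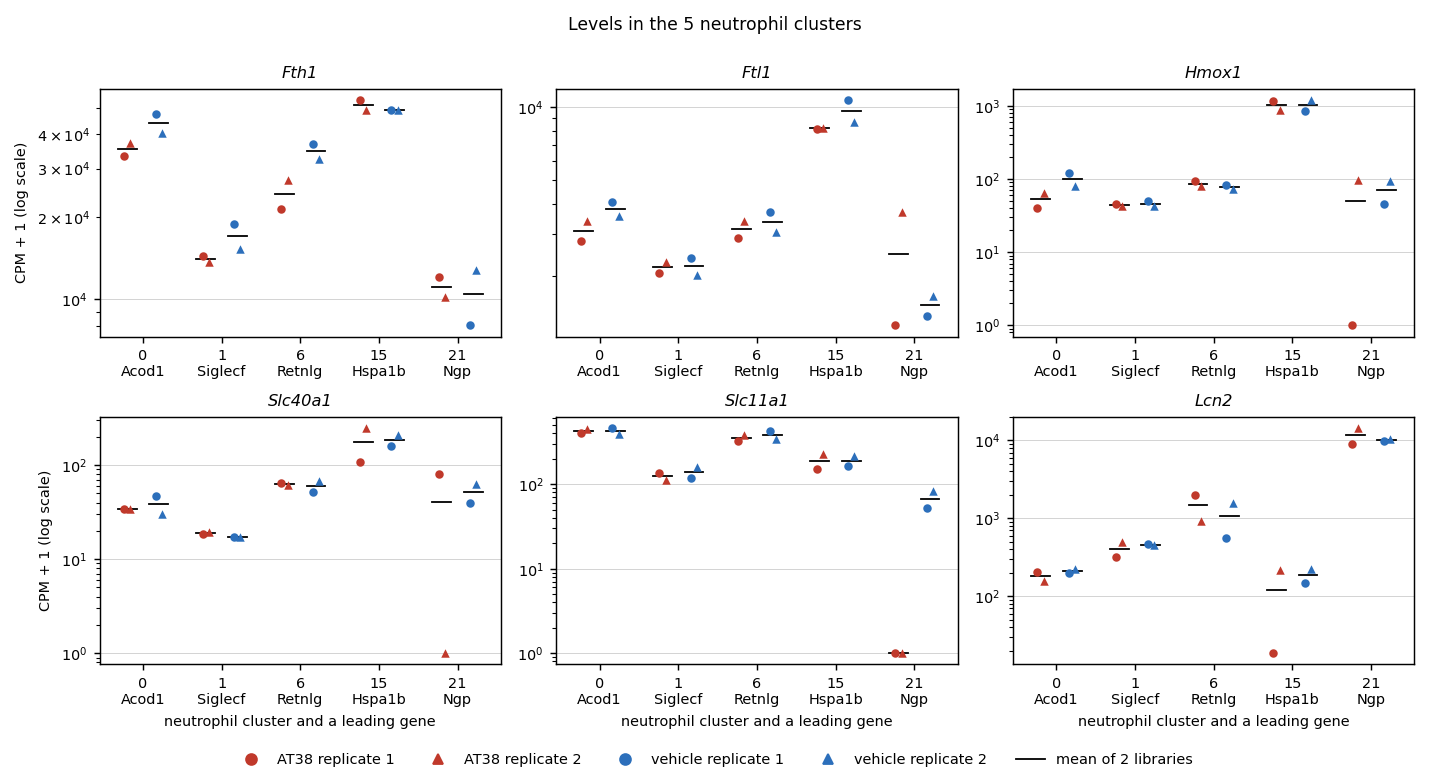
CPM + 1 (log scale) of 6 genes in the 5 neutrophil clusters, each named by its number and a leading gene, AT38 libraries left of vehicle libraries. Cluster 15 (Hspa1b) is highest for Fth1, Ftl1, Hmox1 and Slc40a1, cluster 21 (Ngp) for Lcn2, and the points of cluster 21 rest on 3 to 21 cells per library.

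In mononuclear phagocytes the ferroxidase Cp was higher with AT38, and it was the 1 of 8 iron genes that passed, whereas 0.365% of the 10968 genes tested were higher. Cp was at 37.1 and 34.8 CPM in AT38 phagocytes, against 17.5 and 18.5 CPM in vehicle phagocytes, a log2 fold change of 1.00 ± 0.15 (SE, n = 2 each, edgeR adjusted p = 0.0277). At an unadjusted p under 0.05 there were 3 of the 8, against 888 of the 10968 genes tested, and DESeq2 called 1. Both AT38 libraries lay above both vehicle libraries. These levels rested on 205 and 111 UMIs in 86 and 45 cells with AT38, and on 81 and 123 UMIs in 36 and 61 cells with vehicle. After thinning to 1000 UMIs, 3.76% and 2.81% of AT38 phagocytes and 2.70% and 2.22% of vehicle phagocytes had a Cp UMI, against 0.0374% to 0.167% of T cells. Unthinned, the shares were 16.3% and 12.5% with AT38 and 8.82% and 8.85% with vehicle, against 0.192% to 0.543% of T cells. The call of Cp in all phagocytes was lost on leaving out any 1 library, with edgeR adjusted p of 0.11 without AT38 replicate 1, 0.097 without AT38 replicate 2, 0.14 without vehicle replicate 1 and 0.12 without vehicle replicate 2. The count of all called genes likewise fell to 38, 39, 23 and 34, against 62.

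The Cp difference lay in the macrophage-like cells. There Cp was at 45.6 and 46.2 CPM with AT38 and at 18.3 and 23.4 CPM with vehicle (1.12 ± 0.18, edgeR adjusted p = 0.0258), and it was 1 of 8 genes that passed there, against 0.24% of all genes that were higher. The monocyte-like cells held 14 Cp UMIs in all. In all phagocytes without the cells holding UMIs of 2 or more epithelial markers, Cp was 0.97 ± 0.16 (edgeR adjusted p = 0.0244), and DESeq2 called 0 of the 8 genes there. The overlapping gene Hps3 was at 35.3 and 38.3 CPM with AT38 and at 37.2 and 35.8 CPM with vehicle in all phagocytes.

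Slc40a1, through which iron leaves the macrophage, was at 9.59 and 14.7 CPM in AT38 phagocytes, against 4.32 and 5.72 CPM in vehicle phagocytes. The groups did not overlap, on 53 and 47 UMIs with AT38 and 20 and 38 UMIs with vehicle, but the difference did not pass (1.21 ± 0.31, edgeR adjusted p = 0.185). It passed with no filter on low counts, with at least 500 genes per cell and with the 8 genes among the clustered genes, and over all alternatives the adjusted p ran from 0.0038 to 0.80. Without the 5 cells with the most Slc40a1 UMIs the log2 fold change was 0.52. Of these 158 UMIs, the monocyte-like cells held 3. In the macrophage-like cells Slc40a1 was at 11.9 and 19.6 CPM with AT38 and 4.96 and 6.91 CPM with vehicle (1.33, edgeR adjusted p = 0.166).

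Hmox1 in mononuclear phagocytes was at 138 and 228 CPM with AT38 and at 350 and 213 CPM with vehicle, with overlapping groups (−0.62 ± 0.43, edgeR adjusted p = 0.863), and its log2 fold change ran from −1.06 without AT38 replicate 2 to −0.22 without vehicle replicate 1. A single cell of vehicle replicate 1 carried 366 Hmox1 UMIs, and the 5 cells with the most held 47.9% of the Hmox1 UMIs in AT38 replicate 2 and 47.7% in vehicle replicate 1. Slc11a1 was at 100.1 and 122 CPM with AT38 and at 142 and 139 CPM with vehicle, without overlap, and did not pass (−0.34, edgeR adjusted p = 0.551). In the monocyte-like cells Slc11a1 was at 124 and 142 CPM with AT38 and 206 and 195 CPM with vehicle (−0.59 ± 0.16, edgeR adjusted p = 0.131). The macrophage-like cells went the same way. After thinning to 500 UMIs, 4.50% and 4.91% of them had an Slc11a1 UMI with AT38 and 6.33% and 6.58% with vehicle. Unthinned, the shares were 50.3% and 40.2% with AT38 and 55.0% and 55.2% with vehicle. None of 5 genes tested passed in the monocyte-like cells, against 0.439% of all genes.

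The remaining genes overlapped between the groups in phagocytes. Fth1 was at 10092 and 12450 CPM with AT38 and 13791 and 12205 CPM with vehicle (−0.20 ± 0.13, edgeR adjusted p = 0.833), between −0.40 without AT38 replicate 2 and −0.025 without AT38 replicate 1. Ftl1 was at 2740 and 3577 CPM with AT38 and 3365 and 3269 CPM with vehicle, and Tfrc at 32.4 and 33.9 CPM with AT38 and 33.1 and 33.7 CPM with vehicle. Lcn2 was at 36.6 and 8.78 CPM with AT38 and 27.5 and 7.23 CPM with vehicle, and 165 of the 202 UMIs of AT38 replicate 1 lay in 1 cell.

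The phagocyte class also differed in its markers. The 10 macrophage markers summed to 10297 and 11339 CPM with AT38 and 6784 and 8543 CPM with vehicle, with 8 of 10 higher in both AT38 libraries. The 6 markers of type 2 dendritic cells summed to 698 and 632 CPM with AT38 and 327 and 393 CPM with vehicle, 3 of 6 higher. The 7 monocyte markers summed to 2927 and 2978 CPM with AT38 and 3386 and 3767 CPM with vehicle, and in the macrophage-like cells to 1760 and 1194 CPM with AT38 and 2648 and 2951 CPM with vehicle. The 7 B cell markers summed to 34.02 and 23.2 CPM with AT38 and 112 and 50.6 CPM with vehicle, 5 of 7 lower. The 7 epithelial markers, which the Cp-rich keratin cluster carries, summed to 31.7 and 32.6 CPM with AT38 and 38.3 and 26.2 CPM with vehicle. The part of these marker differences in the Cp and Slc40a1 levels was not tested.

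**Figure D4:**
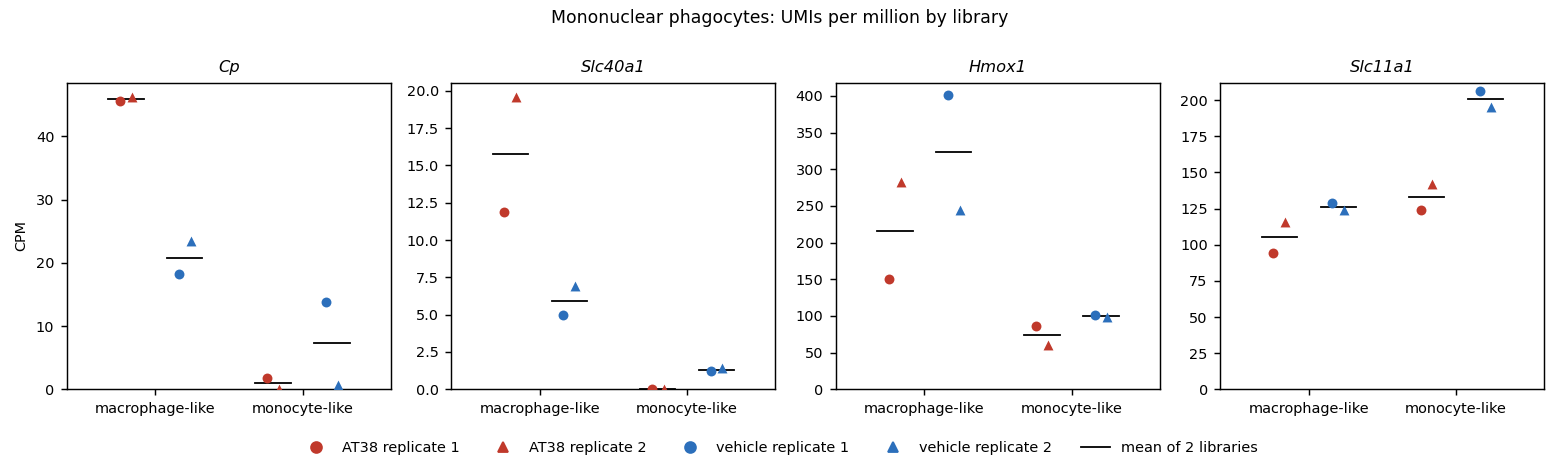
CPM of Cp, Slc40a1, Hmox1 and Slc11a1 in macrophage-like and monocyte-like cells, AT38 libraries left of vehicle libraries, with the mean of 2 libraries as a bar and axes from 0. Cp and Slc40a1 are higher in the AT38 libraries of the macrophage-like cells, and Slc11a1 is lower in the AT38 libraries of both the macrophage-like and the monocyte-like cells.

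In dendritic cells, 0 of 6 genes tested passed, against 0.0179% of the 11168 genes tested. At an unadjusted p under 0.05 there were 3, Slc11a1, Lcn2 and Tfrc, against 649 of the 11168 genes tested, and DESeq2 called 0. Slc11a1 was at 5.55 and 4.31 CPM with AT38 and 9.07 and 13.1 CPM with vehicle. Lcn2 was at 0.972 and 0.861 CPM with AT38 and 2.37 and 3.32 CPM with vehicle, on 45 UMIs in all. The 10 neutrophil markers summed to 489 and 154 CPM with AT38 and 1185 and 926 CPM with vehicle in dendritic cells, each of the 10 lower in both AT38 libraries, and their part in the Slc11a1 and Lcn2 levels was not tested. Tfrc was at 31.2 and 24.5 CPM with AT38 and 37.5 and 41.5 CPM with vehicle. Fth1 overlapped, at 5186 and 5908 CPM with AT38 and 6435 and 5418 CPM with vehicle. Among the subtypes, Fth1 was at 2086 and 2253 CPM with AT38 and 3131 and 2727 CPM with vehicle in type 1 dendritic cells, and at 7901 and 9057 CPM with AT38 and 8060 and 7466 CPM with vehicle in type 2 dendritic cells. Neither passed (edgeR adjusted p of 0.108 and 0.362, in fits that called 0.326% and 0.533% of all genes).

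In the lymphoid classes no gene of the 8 passed. In T cells 0 of 5 genes tested passed (0.473% of all genes did), in cycling T cells 0 of 3 (0.0238%), in B cells 0 of 3 (0.0731%) and in NK cells 0 of 3 (0.0423%). None of them reached an unadjusted p under 0.05 in these 4 classes, and DESeq2 called 0 in each. Of all genes tested, 785 of 10576 reached such a p in T cells and 609 of 8391 in cycling T cells. In B cells 483 of 8211 did, and in NK cells 434 of 7099. Tfrc in cycling T cells was at 142 and 124 CPM with AT38 and 130 and 136 CPM with vehicle. In T cells Tfrc was at 47.9 and 40.8 CPM with AT38 and 52.0 and 53.2 CPM with vehicle, without overlap. In mast cells or basophils 0 of 2 passed in edgeR, 0 had an unadjusted p under 0.05 and DESeq2 called 0 (0 of all 2611 genes passed in edgeR, 80 of them at an unadjusted p under 0.05).

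In the keratin cluster 0 of 8 passed (0.0188% of all genes did), and DESeq2 called 0. At an unadjusted p under 0.05 there was 1, Hmox1, against 506 of the 10630 genes tested. Hmox1 was at 38.4 and 16.2 CPM with AT38 and 73.2 and 109 CPM with vehicle, without overlap (−1.60 ± 0.42, edgeR adjusted p = 0.943). It passed when AT38 replicate 1 was left out (edgeR adjusted p = 0.021). Cp was at 161 and 156 CPM with AT38 and 258 and 204 CPM with vehicle, the opposite order to that in macrophage-like cells, and did not pass (−0.48, edgeR adjusted p = 0.943).

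Whether the AT38 effect differed between classes was tested with an interaction term. Between neutrophils and mononuclear phagocytes it differed for Slc40a1, 1 of 8 genes tested, whereas 0.779% of the 10912 genes tested were lower in this contrast. The log2 fold change of Slc40a1 in neutrophils minus that in phagocytes was −1.58 ± 0.31 (edgeR adjusted p = 0.00241), and it was lost without vehicle replicate 1 (−1.34, adjusted p = 0.075). At an unadjusted p under 0.05 there were 4 of the 8, against 1217 of the 10912 genes tested. DESeq2, which gave Slc40a1 no adjusted p, called 0. For Fth1 this difference was −0.38 ± 0.13 and did not pass (edgeR adjusted p = 0.172). It passed without AT38 replicate 1 (−0.51, 0.00075), with up to 20% mitochondrial UMIs, with at least 500 genes per cell, with doublets kept and with the 8 genes clustered, and its adjusted p ran from 0.00075 to 0.89 over the alternatives. Between neutrophils and dendritic cells the effect differed for both ferritin chains, 2 of 7 genes tested, whereas 0.408% of the 11263 genes tested were lower. For Fth1 the difference was −0.55 ± 0.10 (edgeR adjusted p = 0.00851) and for Ftl1 −0.51 ± 0.12 (edgeR adjusted p = 0.0481). The Fth1 difference was lost without AT38 replicate 2 (0.061), vehicle replicate 1 (0.16) or vehicle replicate 2 (0.60), and the Ftl1 difference without AT38 replicate 2 (0.35) or vehicle replicate 1 (0.66). Between phagocytes and dendritic cells 0 of 8 passed (0.0171% of genes did), and DESeq2 called 0. In this contrast 4 of the 8 had an unadjusted p under 0.05, against 658 of the 11724 genes tested. The count of all called genes went down to 60 without vehicle replicate 1 in the first contrast, against 127, and to 27 without AT38 replicate 2 in the second, against 66.

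**Figure D5:**
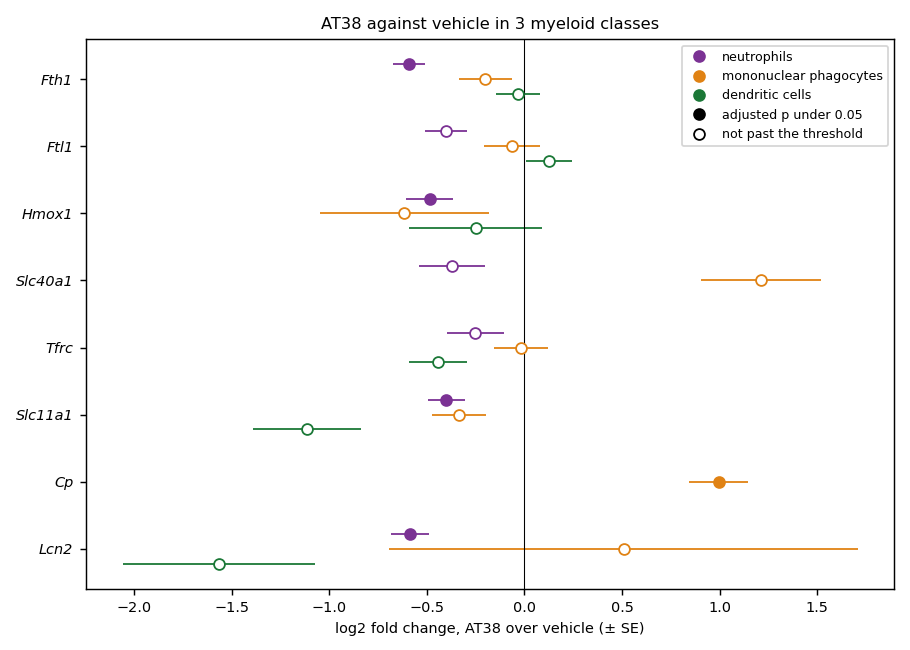
Log2 fold change of AT38 over vehicle (± SE) for each gene in neutrophils, mononuclear phagocytes and dendritic cells, with filled points for an adjusted p under 0.05. In neutrophils the 7 points lie below 0 and 4 are filled, and in phagocytes Cp is filled at 1.00 with Slc40a1 unfilled at 1.21.

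The balance of the ferritin chains can be read within a library without scaling, as the ratio of Fth1 to Ftl1 UMIs. Since each 3′ end may be captured with its own efficiency, the ratio is compared here across classes and libraries only. It was 8.53 and 7.89 in AT38 neutrophils, against 9.12 and 9.63 in vehicle neutrophils, and both AT38 libraries lay below both vehicle libraries. In mononuclear phagocytes it was 3.68 and 3.48 with AT38 and 4.10 and 3.73 with vehicle, and in NK cells 2.90 and 2.89 with AT38 and 3.35 and 3.27 with vehicle. In T cells (4.22 and 4.50 with AT38, 4.73 and 4.31 with vehicle) the groups overlapped. They also overlapped in macrophage-like cells (3.98 and 3.62 with AT38, 4.30 and 3.87 with vehicle) and in dendritic cells as a class. Among dendritic subtypes the ratio was lower with AT38 in type 1 and mature cells (log2 difference −0.30 and −0.49). In type 2 dendritic cells it was higher (0.09), and none of these 3 subtypes overlapped. Among neutrophil clusters it overlapped in cluster 0, at 11.8 and 11.05 with AT38 and 11.7 and 11.4 with vehicle. It was lower with AT38 in cluster 1 (6.94 and 5.95 with AT38, 7.88 and 7.51 with vehicle) and cluster 6 (7.43 and 8.01 with AT38, 10.03 and 10.6 with vehicle) and higher in cluster 15 (6.54 and 5.97 with AT38, 4.59 and 5.67 with vehicle), in each without overlap. A 2 against 2 design cannot give an exact permutation p under 0.333. That was the two-sided p in neutrophils (log2 difference −0.19), phagocytes (−0.13), NK cells (−0.19) and cycling T cells (−0.20). Over the classes the ratio was highest in neutrophils and lowest in mast cells or basophils (1.13 and 1.41 with AT38, 1.03 and 1.47 with vehicle).

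Of 42 other genes of iron and haem handling, neutrophils gave 22 that could be tested, of which 5 were lower with AT38 and 0 higher, beside 3.71% of all genes lower, and the median log2 fold change over the 22 was −0.21, against 0.01 over all genes tested. Fbxl5, which marks iron regulatory protein 2 for decay when iron is plentiful, was at 245 and 212 CPM in AT38 neutrophils, against 338 and 395 CPM in vehicle neutrophils (−0.80 ± 0.10, edgeR adjusted p = 4.39e-05). Blvrb, which encodes biliverdin reductase B, was at 10.5 and 15.1 CPM with AT38 and 31.8 and 29.6 CPM with vehicle (−1.38 ± 0.23, edgeR adjusted p = 0.000512). Steap4, a reductase of iron and copper, was at 18.5 and 25.3 CPM with AT38 and 33.6 and 44.0 CPM with vehicle (−0.96, edgeR adjusted p = 0.00543). Haptoglobin (Hp), which binds free haemoglobin, was at 309 and 354 CPM with AT38 and 368 and 412 CPM with vehicle (−0.36, edgeR adjusted p = 0.0287). The fifth, named after its value was seen, was the iron-sulphur scaffold gene Iscu (−0.41, edgeR adjusted p = 0.0426). The groups overlapped for none of the 5, which adds nothing to these calls, since the 5 were chosen by the test on the same libraries. By edgeR, the Hp call was lost without AT38 replicate 1 (adjusted p = 0.22) or vehicle replicate 2 (0.18), and the Iscu call without any 1 library (0.079 to 0.14). Hp and Iscu also did not pass with library totals as the scale, nor Hp without the immature cluster 21 (−0.30). Steap4, Hp and Iscu did not pass in DESeq2 or with doublets kept.

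In mononuclear phagocytes 30 of the 42 were tested, and 1 was higher and 1 lower, beside 0.365% of all genes higher and 0.201% lower. Cd163, the macrophage receptor that takes up haemoglobin bound to haptoglobin, was at 27.7 and 16.9 CPM in AT38 phagocytes, against 7.13 and 7.38 CPM in vehicle phagocytes (1.64 ± 0.25, edgeR adjusted p = 0.0290). Fbxl5 was at 66.6 and 63.6 CPM with AT38 and 131 and 117 CPM with vehicle (−0.92 ± 0.12, edgeR adjusted p = 0.0137). The median over the 30 was 0.13, against 0.0015 over all genes tested. By edgeR, the Cd163 call was lost without AT38 replicate 1 (adjusted p = 0.13), vehicle replicate 1 (0.12) or vehicle replicate 2 (0.13), and the Fbxl5 call without AT38 replicate 1 (0.070), AT38 replicate 2 (0.068) or vehicle replicate 1 (0.083). Over all kept cells 34 were tested, and 4 were lower and 0 higher, beside 1.39% of all genes lower. These were Fbxl5 (−0.70), Blvrb (−0.61), the haem-haemopexin receptor Lrp1 (−0.61) and lactoferrin, Ltf (−1.41), which is also 1 of the immature neutrophil markers. Of these calls only Fbxl5 passed without each single library, as Blvrb and Ltf were lost without vehicle replicate 1 (adjusted p = 0.051 and 0.17 by edgeR) and Lrp1 and Ltf without vehicle replicate 2 (0.053 and 0.14). In the other classes 0 of the list passed in edgeR, with 0 to 5 of them per class at an unadjusted p under 0.05. The most, 5 of 26, were in dendritic cells, where 649 of all 11168 genes tested reached such a p.

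The genes whose level followed each of the 8 most closely over the 36 points (9 classes in 4 libraries) were found among 8371 genes with a mean of at least 10 CPM, by Pearson correlation of log2(CPM + 1). The points share libraries and the same few class differences, so r is a description only. Fth1 was closest to Ets2 (0.97), Igsf6 and Ptgs2os2, and Ftl1 to Nfe2l2 (0.96), Gabarap and Lamp2. Hmox1 was closest to Plin2 (0.93), Cstb and Inhba, and Slc40a1, whose own mean was below the minimum, to F3 (0.93), Sod2 and Lrg1. Tfrc was closest to Pcna (0.87), Ahi1 and Hmgn2, and Slc11a1 to Gm5150 (0.95), C5ar1 and F10. Cp was closest to Laptm4a (0.93), Tcim and Nupr1, and Lcn2 to Sgms2 (0.94), Tnfrsf23 and Slc27a4.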

How the data were processed

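The deposited matrices of the 4 libraries hold UMI counts per gene and cell barcode, which the authors made with Cell Ranger 3.1.0 on mm10, per the submitters' processing notes. Barcodes with under 200 genes (876) or over 10% mitochondrial UMIs (3142) were removed. Presumed doublets (683) were removed as the highest Scrublet scores, at 0.8% of cells per 1000 barcodes, since the caller's own threshold marked 5 of 18001 barcodes (0.0278%). Each number counts over all barcodes, and the 3 overlap. Cells were clustered in scanpy 1.11.5 on 2000 variable genes without the 8 genes (30 components, 15 neighbours, Leiden resolution 1) into 22 clusters, which were named by marker lists, so the class names are rebuilt here.

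UMI counts were summed per library and class and tested with edgeR 4.0.16 (quasi-likelihood, TMM, filterByExpr, R 4.3.3), each class alone if no library had under 20 of its cells, with Benjamini-Hochberg adjustment over all genes tested in the class and a threshold of 0.05. DESeq2 1.42.0, other scalings, filters, clusterings and leaving out each library were alternatives, and the edgeR step was tested on simulated data. The replicate is a library, a pool of 4 mice, and the kept libraries of a group differed by more than sampling noise (chi-square per degree of freedom of 11.5 for AT38 and 17.6 for vehicle). Intervals and floors cover counting error only. A lack of overlap between groups is a description only, since its exact two-sided permutation p is 0.333 with 2 libraries each. The share of all genes without overlap was not computed.

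The 8 genes, the other lists and the tests were chosen with earlier results of these data known. All 8 genes were to be named in each class, of the other iron and haem genes those past the threshold, at most the 4 with the smallest p in a class, and the 3 genes most like each of the 8. IREs were searched in GENCODE M21 transcripts, and promoter windows were taken from RefSeq. One marker list is not reported here.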

Additional observations from a re-analysis of the deposited data

Results flagged for a closer look

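The response to AT38 differed between classes for 3 gene and class pairs, by the interaction term of edgeR. For Slc40a1 the log2 fold change in neutrophils minus that in mononuclear phagocytes was −1.58, from a value of −0.37 in neutrophils and 1.21 in phagocytes, neither of which passed alone in edgeR. DESeq2 gave this difference no adjusted p. The phagocyte value rested on 158 UMIs, and the difference was not refitted without the 5 cells with the most Slc40a1 UMIs. The phagocyte value passed under some of the alternatives, and the difference did not pass without vehicle replicate 1 (−1.34). For Fth1 the difference between neutrophils and dendritic cells was −0.55, and for Ftl1 it was −0.51. Both ferritin differences were past the threshold with TMM and not with library totals as the scale (−0.37 and −0.33).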

How the results depend on the processing

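With 2 libraries per group, the number of called genes moved with single libraries and settings, so a count within one class is a rough one. Leaving out a library leaves its group with 1 library, which is assumed to vary like the others. Of the 143 alternative values for members called over all cells, in neutrophils or in phagocytes, 100 kept their direction and their call, 39 kept the direction only and 4 changed direction. Of the 304 for members not called, 266 kept their direction and stayed uncalled. A further 21 kept the direction and were called, and 17 changed direction. These also take in Cp and Hmox1 of the keratin cluster. Lcn2, Hmox1, Cp and Slc40a1 rest on few UMIs or few cells, and Slc11a1 and Lcn2 in dendritic cells on 194 and 45 UMIs. The cause of each change below was not tested.

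The number of genes called over all kept cells was 262, against 485 in DESeq2, 775 with no filter on low counts, 120 with the replicate block and 167 to 345 without 1 library. In neutrophils it was 449, against 205 in DESeq2 and 86 with doublets kept. In mononuclear phagocytes it was 62, against 96 in DESeq2, 357 with no filter, 256 with the replicate block, 216 with up to 20% mitochondrial UMIs, 265 with at least 500 genes per cell, 208 with the 8 genes among the clustered genes and 23 to 39 without 1 library. In dendritic cells it was 2, against 22 in DESeq2, 4 with library totals, 151 with no filter, 20 with the replicate block, 1 at 20% mitochondrial UMIs, 1 at 500 genes and 2 to 365 without 1 library. In T cells it was 50, against 10 in DESeq2, 99 with no filter, 93 with the replicate block, 2 at 20% mitochondrial UMIs, 4 at 500 genes, 6 with doublets kept, 1 at resolution 0.5, 1 with the 8 genes clustered and 4 to 88 without 1 library. In cycling T cells it was 2, against 25 with no filter, 50 with the replicate block and 15 to 44 without 1 library. In B cells it was 6, against 2 in DESeq2, 34 with no filter, 62 with the replicate block, 55 with doublets kept and 5 to 78 without 1 library. In NK cells it was 3, against 30 with no filter, 9 with the replicate block, 12 at 20% mitochondrial UMIs, 12 at resolution 0.5 and 13 to 39 without 1 library. In mast cells or basophils it was 0, against 10 with no filter and 12 to 24 without 1 library. In the keratin cluster it was 2, against 14 in DESeq2, 0 with library totals, 16 with no filter, 0 with the replicate block and 4 to 35 without 1 library.

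For the difference between neutrophils and mononuclear phagocytes the number was 127, against 33 in DESeq2, 207 with no filter, 224 at 20% mitochondrial UMIs, 194 at 500 genes, 244 with doublets kept, 260 with the 8 genes clustered and 60 to 198 without 1 library. Between neutrophils and dendritic cells it was 66, against 43 in DESeq2, 233 with no filter and 27 to 171 without 1 library. Between phagocytes and dendritic cells it was 2, against 7 in DESeq2, 4 with library totals, 121 with no filter, 4 at 20% mitochondrial UMIs, 11 at 500 genes, 14 with doublets kept, 1 with the 8 genes clustered and 4 to 88 without 1 library. Library totals also turned the split of higher and lower calls, to 115 and 60 against 42 and 85 for neutrophils minus phagocytes. For neutrophils minus dendritic cells it turned to 70 and 18 against 20 and 46. The split changed without turning in T cells, to 9 and 28 against 20 and 30, and in B cells, to 6 and 3 against 5 and 1. With the size factors of DESeq2 in edgeR the split for neutrophils minus phagocytes was 24 and 86.

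Of the 8 genes, 3 were called over all kept cells and 5 in DESeq2, which added Ftl1 and Hmox1. In neutrophils 4 were called, against 2 with library totals, 0 with doublets kept and 2 to 5 without 1 library. In phagocytes 1 was called, against 2 with no filter, 2 with the replicate block, 2 at 500 genes, 2 with the 8 genes clustered, 0 without the 5 cells with the most UMIs of the gene and 0 in each fit without 1 library. In dendritic cells 0 were called, against 1 with no filter and 0 to 1 without 1 library, and in the keratin cluster 0, against 0 to 1 without 1 library. For neutrophils minus phagocytes 1 was called, against 0 in DESeq2, 2 at 20% mitochondrial UMIs, 2 at 500 genes, 3 with doublets kept, 2 with the 8 genes clustered and 1 to 3 without 1 library. For neutrophils minus dendritic cells 2 were called, against 0 with library totals, 1 at 20% mitochondrial UMIs, 0 with doublets kept and 0 to 2 without 1 library. For phagocytes minus dendritic cells 0 were called, against 1 with no filter and 0 to 2 without 1 library. Of the other iron and haem genes 5 were called in neutrophils, against 2 in DESeq2 and 3 with doublets kept. In phagocytes 2 were called, against 4 with no filter, 5 with the replicate block, 4 at 500 genes, 4 with the 8 genes clustered and 0 to 2 without 1 library, and over all kept cells 4, against 8 with no filter and 2 to 6 without 1 library.

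Over all kept cells the log2 fold change of Fth1 was −0.50 and not called with the replicate block, and −0.57 to −0.44 without 1 library. Lcn2 was −0.79 at 20% mitochondrial UMIs, −0.83 at 500 genes and −0.89 without its 5 highest cells, none of them called, and −1.004 to −0.68 without 1 library. In neutrophils Fth1 was −0.68 with doublets kept and −0.32, −0.29, −0.53 and 0.027 in clusters 0, 1, 6 and 15 alone, none of them called. Hmox1 was −0.50 in DESeq2, −0.36 with library totals, −0.67 with doublets kept and −0.42 without its 5 highest cells. In clusters 0, 1, 6 and 15 alone Hmox1 was −0.91, −0.044, 0.15 and −0.029. None of these Hmox1 values was called. Without 1 library Hmox1 was −0.64 to −0.34. Slc11a1 was −0.28 with library totals, −0.55 with doublets kept and 0.0016, −0.20, −0.14 and −0.014 in these clusters, none of them called. Without 1 library Slc11a1 was −0.47 to −0.34. Lcn2 was −0.70 with doublets kept, −0.64 without its 5 highest cells and −0.055 without the immature cluster. In these clusters Lcn2 was −0.21, −0.18, 0.46 and −0.57. None of these Lcn2 values was called. As the log2 ratio of means at the same cluster weights, Lcn2 was 0.14. Directions also turned for Slc40a1 in clusters 1 (0.11) and 6 (0.053), Tfrc in cluster 0 (0.14), Hp in cluster 6 (0.074) and Steap4 in cluster 1 (0.15).

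In phagocytes Cp was 0.93 without its 5 highest cells and 0.96 to 1.04 without 1 library, and called in none of these. Fth1, Ftl1 and Hmox1 turned to 0.28, 0.030 and 0.78 in cluster 18 alone, Ftl1 to 0.010 in the monocyte-like cells (cluster 9) and −0.31 to 0.15 without 1 library, and Tfrc to 0.0096 in the macrophage-like cells, 0.061 in cluster 4 alone and −0.078 to 0.056 without 1 library. Lcn2 was −1.38 at 20% mitochondrial UMIs, −1.17 with the 8 genes clustered, −0.89 without its 5 highest cells and −0.88 to 1.69 without 1 library. The Slc40a1 difference between neutrophils and phagocytes was −1.92 to −1.34 without 1 library. The Fth1 difference between neutrophils and dendritic cells was −0.37 with library totals, −0.69 with doublets kept and −0.62 to −0.49 without 1 library, and that of Ftl1 was −0.33, −0.64 and −0.65 to −0.38 in the same order, and −0.53 at 20% mitochondrial UMIs.

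The libraries share replicate numbers between groups, and the labels do not say that a number marks a pair. The correlation of same-numbered deviations was −0.0013 over all kept cells, −0.034 in neutrophils, 0.21 in phagocytes and 0.13 in dendritic cells. In the replicate block, Ftl1 in neutrophils (−0.40) and Slc40a1 in phagocytes (1.27) were called. The block could not be fitted for the differences between classes, since their library terms hold it. Single clusters, equal cluster weights, cells without epithelial markers and library totals as the scale were added after the data were seen.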
